A study of Homo sapiens with 6 samples.

Results

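The genes described here encode the major cytosolic and mitochondrial heat shock chaperones and 2 heat shock transcription factors: HSPA8, HSPH1, HSP90AA1, HSP90AB1, DNAJA1, DNAJB1, HSPD1, HSPE1, HSF1 and HSF2. They were taken by name, without use of their measured values, and all 10 were found among the 60856 features of the deposited tables. RNA was sequenced from wild-type Jurkat cells, a single T-cell leukemia line, so the results concern that line only. One group of 3 libraries received the vehicle dimethyl sulfoxide (DMSO) at 0.1%, and the other group of 3 received bisphenol AF (BPAF), a fluorinated relative of bisphenol A, at 1 µM. The sample labels give no DMSO percent for the BPAF group. The sources differ on the time, with 12 h in the treatment labels and the design text and 24 h in the treatment protocol. Polyadenylated RNA was selected and read as strand-specific paired-end libraries. Nothing states whether the replicates were separate cultures, so p-values measure only the spread between these samples.

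Chaperones bind unfolded or partly folded proteins and release them after cycles of ATP hydrolysis. In the cytosol, HSP70 proteins receive clients from J-domain proteins such as DNAJA1 and DNAJB1, and many clients pass on to HSP90, which holds kinases and steroid hormone receptors in a state able to be activated. In the heat shock response, HSF1 forms trimers and binds heat shock elements, which are inverted repeats of the unit GAA, and HSF2 is a related factor that can join it in mixed trimers.

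Only 3 of the 10 genes passed the test, and all 3 were lower in BPAF: HSPA8, which encodes the constitutive cytosolic HSP70, DNAJA1, a J-domain partner of it, and HSF2. None rose with edgeR or DESeq2, and of the genes above 0 only HSF1 had an unadjusted p under 0.05 (0.0292). The falls were small, with log2 fold changes from -0.23 to -0.13 on counts scaled to a common library total (CPM). Across all 15490 genes tested with edgeR's quasi-likelihood test at a Benjamini-Hochberg adjusted p of 0.05, 3.4% were lower and 2.65% higher. Abundant genes leaned downward as a class: of the 660 genes whose log2 CPM averaged 8 or more, 21.4% were called lower. Of the 10 genes, 7 lay in that abundance range and 2 of those 7 fell, so the share was near that of other abundant genes. The median log2 difference was -0.10 over the 10 genes, -0.05 over the 660 abundant genes and 0.0019 over all genes tested, and 9 of the 10 had a difference below 0, against 77.4% of the abundant genes and 49.2% of all. In bulk RNA, fewer cells of a type and less RNA per cell cannot be told apart.

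**Figure D1:**
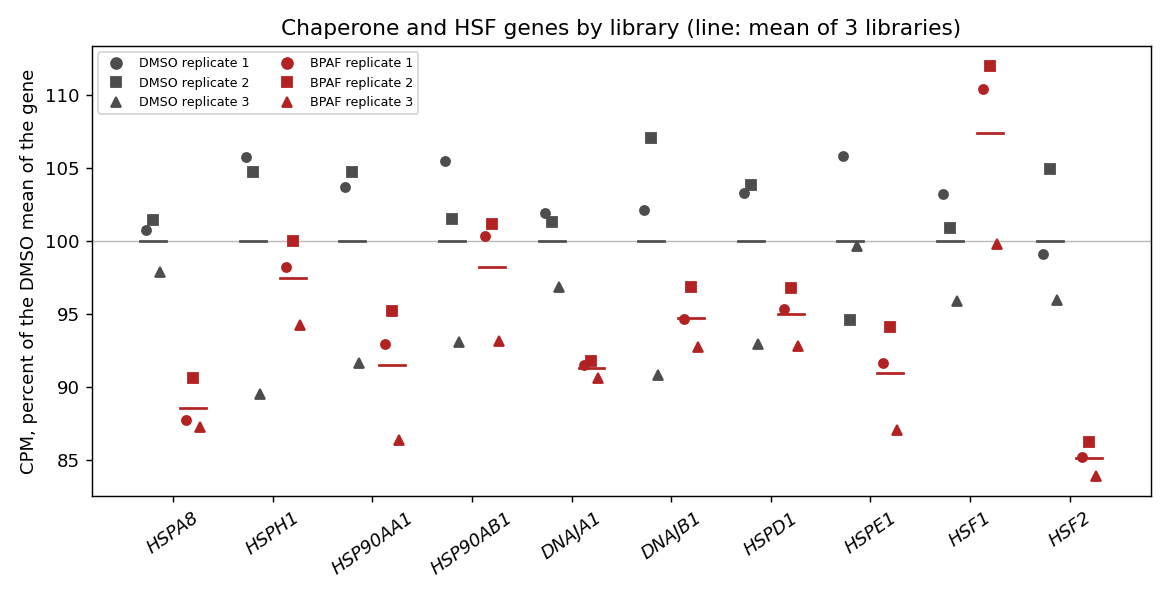
Level of each gene in the 6 libraries as a percent of its DMSO mean (vertical axis, CPM scaled by TMM), with circles, squares and triangles for replicates 1, 2 and 3 and a line at each group mean. The groups are apart for HSPA8, DNAJA1, HSPE1 and HSF2, and the triangles of DMSO replicate 3 lie low for 9 of the 10 genes.

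The RNA held the T-cell profile the labels name. All 18 T-cell markers averaged at least 1 CPM, and their summed level was 4415 to 4479 CPM in DMSO and 4249.9 to 4385 CPM in BPAF, without overlap, although 0 of the 18 passed the test with edgeR or DESeq2 and 4 had an unadjusted p under 0.05. None of 8 myeloid and none of 5 epithelial markers reached 1 CPM, with summed levels of 0.549 to 1.17 CPM and 0.412 to 0.681 CPM in DMSO, and 0.697 to 1.02 CPM and 0.647 to 1.13 CPM in BPAF, and EPCAM, KRT19 and CDH1 were at 0 in all libraries. Of 6 B-cell markers only CD79A reached 1 CPM (sums of 12.8 to 15.2 CPM in DMSO and 11.7 to 12.5 CPM in BPAF), and of 5 natural killer markers only NKG7 did (2.39 to 3.43 CPM and 2.82 to 4.18 CPM), with KLRF1 at 0. Stromal and endothelial markers summed to 121.7 to 130.1 CPM in DMSO and 118.1 to 119.7 CPM in BPAF, nearly all of it PECAM1, which T cells can also express, while DCN and CDH5 were at 0. The part of these levels in the results was not tested. Libraries held 20253656 to 22617613 counts.

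Inverted GAA repeats lie within 250 bases before a RefSeq transcript start of 6 of the 10 genes, and these are shown because they are the sequence that the heat shock factors recognise. Sequences came from the RefSeq promoter table (GRCh38.p14), which matched 9 of the genes, all but HSF1, with 16 windows of 250 bases before a transcript start. Pairs of units were searched as GAANNTTC and TTCNNGAA, which read the same on both strands, and runs of 3 units as GAANNTTCNNGAA and TTCNNGAANNTTC, which are each other's reverse complement. Matches may overlap, and each run of 3 contains 2 pairs. Each line gives the strand of the gene, 5′ to 3′, with bases of a matched pair in capitals.
HSPA8, farther from the start (chr11:123062345-123062374, minus): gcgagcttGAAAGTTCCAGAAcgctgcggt
HSPA8, nearer the start (chr11:123062170-123062199, minus): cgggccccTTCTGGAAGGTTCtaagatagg
DNAJA1 (chr9:33025064-33025093, plus): aaagggctccaGAAGATTCcacgagcgccg
DNAJB1, farther (chr19:14518456-14518485, minus): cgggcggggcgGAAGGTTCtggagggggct
DNAJB1, nearer (chr19:14518426-14518455, minus): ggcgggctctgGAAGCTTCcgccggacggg
HSP90AA1 (chr14:102087104-102087133, minus): cTTCCGGAAGGTTCgggaggcTTCTGGAAa
HSP90AB1, farther (chr6:44247770-44247799, plus): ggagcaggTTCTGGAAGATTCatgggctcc
HSP90AB1, nearer (chr6:44247823-44247852, plus): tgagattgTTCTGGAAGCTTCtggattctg
HSPD1 (chr2:197500061-197500090, minus): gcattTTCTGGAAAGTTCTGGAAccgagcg
The 3-unit run occurred in HSPA8, HSP90AA1, HSP90AB1 and HSPD1, and only pairs in DNAJA1 and DNAJB1. In HSPA8 the nearer match ended 42 bases before the transcript start, in DNAJB1 39 bases and in HSP90AA1 60 bases, whereas in DNAJA1 it was 190 bases and in HSPD1 227 bases. These windows can overlap exons of other annotated transcripts of the same gene, and those of HSPA8 and HSPD1 with matches lie in annotated exons over all 250 bases. The windows of HSPE1, HSPH1 and HSF2 held no match. The HSPD1 stretch shown above (chr2:197500061-197500090) also lies upstream of the HSPE1 start, but outside the HSPE1 window, which begins at chr2:197500129. By window, 6 of the 16 held a pair and 4 of the 16 a 3-unit run, against 11.6% and 0.441% of all 35116 RefSeq windows of the same length. A match of letters is a description of the sequence, and no match says only that these letters are not in the window. The 4 genes with a 3-unit run had log2 differences from -0.18 to -0.03, and 1 of them, HSPA8, passed the test.

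HSF2, which had the largest log2 difference of the 10 genes, is shown by the bases that precede its annotated first exon, and no inverted pair of the letters above was found in them.
HSF2 (chr6:122399301-122399545, plus, 245 bases): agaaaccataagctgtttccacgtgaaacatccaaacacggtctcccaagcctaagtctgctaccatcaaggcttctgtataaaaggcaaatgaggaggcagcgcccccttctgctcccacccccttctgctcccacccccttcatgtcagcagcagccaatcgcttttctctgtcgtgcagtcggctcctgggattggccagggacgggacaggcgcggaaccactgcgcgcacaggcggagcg

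HSF2 was the least abundant of the 10 genes and fell by 0.23 on the log2 scale (SE 0.06; edgeR adjusted p = 0.0161). The gene (ENSG00000025156) spans chr6:122399546-122433119 on the plus strand in GENCODE release 29 (GRCh38). Its levels were 39.0, 41.3 and 37.8 CPM in DMSO and 33.5, 33.9 and 33.0 CPM in BPAF. Every BPAF library lay below every DMSO library, and the BPAF libraries were tightly grouped (SD 0.458 CPM, against 1.79 CPM in DMSO). The call was lost without DMSO replicate 2 (adjusted p = 0.0594), BPAF replicate 1 (0.0695) or BPAF replicate 3 (0.0703), with the direction kept. The deposited TPM values, which scale for gene length, were 24.8, 30.2 and 25.8 in DMSO and 19.9, 25.0 and 25.3 in BPAF. On that scale the groups overlapped, and only BPAF replicate 1 stood below all DMSO libraries. The tested genes whose log2 CPM most resembled HSF2 over the 6 libraries were MAEA (Pearson r = 0.995), SERBP1 (0.994) and TMEM39A (0.994), out of 6638 genes compared, of which 86 had r of at least 0.95. These libraries share their sequencing depth and group, so the likeness is a description only.

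HSF1 encodes the main activator of the heat shock response and was the only one of the 10 genes with a difference above 0. Its levels were 134.3, 131.3 and 124.8 CPM in DMSO and 143.7, 145.6 and 129.9 CPM in BPAF. BPAF replicates 1 and 2 lay above every DMSO library, whereas BPAF replicate 3 lay inside the DMSO range. The log2 difference was 0.10 (SE 0.04; edgeR adjusted p = 0.186), which did not pass the test. It passed in 1 of the 6 fits with a library left out, that without BPAF replicate 3 (0.15, adjusted p = 0.0476). In the others its adjusted p reached 0.478. The gene (ENSG00000185122) spans chr8:144291591-144314722 on the plus strand.

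The balance of the 2 factors separated the groups in CPM but not in TPM. The ratio of HSF1 to HSF2, which does not depend on library scaling, was 3.44, 3.18 and 3.30 in DMSO and 4.28, 4.29 and 3.93 in BPAF when taken from CPM. All BPAF ratios were above all DMSO ratios, with a mean log2 difference of 0.33 and a two-sided exact permutation p of 0.1, the smallest that 3 against 3 libraries allow. Taken from TPM the log2 difference was 0.36, but the groups overlapped (exact permutation p = 0.2). This ratio was added after its values were seen, and it sets the only gene above 0 against the gene with the largest fall. How often the ratios of other gene pairs did not overlap was not computed. With the length and GC offset, the log2 differences were 0.04 for HSF1 and -0.18 for HSF2 (edgeR adjusted p = 0.677 and 0.0621).

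HSPA8 was the most abundant of the 10 genes, and of the 3 calls it had the smallest adjusted p. The gene (ENSG00000109971; chr11:123057489-123063230, minus strand) had 4339, 4369 and 4218 CPM in DMSO and 3782, 3903 and 3759 CPM in BPAF. The groups were well apart, and the lowest DMSO library was above the highest BPAF library. HSPA8 fell by 0.18 on the log2 scale (SE 0.03; edgeR adjusted p = 0.0012), from 4309 ± 80.1 to 3815 ± 77.8 CPM (SD, n = 3), and the call held with each of the 6 libraries left out in turn (adjusted p up to 0.0269). On the TPM scale the values were 3189, 3229 and 2997 in DMSO and 2955, 3008 and 2994 in BPAF. There the lower values of BPAF overlapped DMSO replicate 3, and the difference in log2(TPM + 1) was -0.07 (limma adjusted p = 0.293). Reads can be shared with 17 pseudogene copies of HSPA8, of which 10 had counts, but these held 0.0122% to 0.0221% of the summed level, and the summed level had no overlap between the groups (4309 ± 80.2 and 3815 ± 77.8 CPM, SD, n = 3; exact permutation p = 0.1). ABI1 (Pearson r = 0.997), KARS1 (0.994) and HADHB (0.991) were most like HSPA8 over the 6 libraries among the 6638 genes, and 109 genes had r of at least 0.95.

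Of the J-domain partners of HSP70, DNAJA1 passed the test and DNAJB1 did not. DNAJA1 (ENSG00000086061; chr9:33025211-33039907, plus strand) had 730.5, 726.3 and 694.5 CPM in DMSO and 656.0, 658.1 and 650.0 CPM in BPAF. The groups did not overlap, and the BPAF libraries spread little (SD 4.19 CPM, against 19.7 CPM in DMSO). DNAJA1 fell by 0.13 on the log2 scale (SE 0.03; edgeR adjusted p = 0.0083), and the call was lost without DMSO replicate 1 (adjusted p = 0.0640) or BPAF replicate 1 (0.0620). DNAJB1, a J protein strongly induced by heat shock, had 250.7, 262.8 and 223.0 CPM in DMSO and 232.4, 237.8 and 227.6 CPM in BPAF (chr19:14514770-14529770, minus strand). Its BPAF values lay within the DMSO range, and the log2 difference was -0.08 (SE 0.05; adjusted p = 0.487).

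HSPH1, an HSP110 protein that exchanges nucleotide on HSP70, was one of 4 genes whose difference lay below 0 on counts and above 0 on TPM. The gene (chr13:31134974-31162388, minus strand) had 479.4, 474.8 and 405.9 CPM in DMSO and 445.2, 453.2 and 427.2 CPM in BPAF. All BPAF values lay between DMSO replicate 3 and the other DMSO libraries, with a log2 difference of -0.04 (SE 0.07; adjusted p = 0.838). As TPM it was 189.8, 190.2 and 159.9 in DMSO and 205.7, 191.9 and 192.8 in BPAF. Here every BPAF value was above every DMSO value, though narrowly (191.9 against 190.2), the only gene of the 10 without overlap in TPM. The share of all genes without overlap in TPM was not computed, and the median difference of all genes tested was 0.08 in log2(TPM + 1). The HSPH1 difference of 0.13 on that scale did not pass (limma adjusted p = 0.359).

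Neither cytosolic HSP90 gene passed the test, but the ratio of the pair did not overlap between the groups. HSP90AA1, the stress-inducible form (chr14:102080738-102139699, minus strand), had 2895, 2923 and 2559 CPM in DMSO and 2595, 2658 and 2411 CPM in BPAF. DMSO replicate 3 lay among the BPAF values, and the log2 difference was -0.13 (SE 0.06; edgeR adjusted p = 0.302). HSP90AB1, the constitutive form (chr6:44246166-44253888, plus strand), had 3366, 3241 and 2971 CPM in DMSO and 3203, 3228 and 2973 CPM in BPAF. Its groups overlapped almost wholly, with a log2 difference of -0.03 (SE 0.05; adjusted p = 0.831). The ratio of HSP90AA1 to HSP90AB1 in TPM was 0.681, 0.711 and 0.684 in DMSO and 0.638, 0.652 and 0.643 in BPAF. Every BPAF ratio lay below every DMSO ratio, with a log2 difference of -0.10 (exact permutation p of 0.1, two-sided, the lowest this design allows) that was also -0.10 from counts. How often the ratios of other gene pairs did not overlap was not computed. For single genes in CPM the share was 24.8% of all tested genes.

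HSPD1 and HSPE1 encode HSP60 and HSP10, the barrel and the lid of the mitochondrial chaperonin, and are read in opposite directions. The annotated span of HSPE1 (chr2:197499994-197503457, plus strand) lies inside that of HSPD1 (chr2:197486581-197516737, minus strand), and the sources used here do not say whether counting used strand, without which their reads cannot be told apart in the shared stretch. HSPE1 had 459.5, 410.9 and 432.7 CPM in DMSO and 398.2, 408.7 and 378.1 CPM in BPAF. The groups did not overlap, although DMSO replicate 2 and BPAF replicate 2 were close. The log2 difference of HSPE1 was -0.14 (SE 0.04; edgeR adjusted p = 0.0536), just outside the threshold, and with DESeq2 the adjusted p was 0.0321. It passed without DMSO replicate 2 (adjusted p = 0.0077) or BPAF replicate 2 (0.0421), and with the length and GC offset (0.0194). Its 27 copies and the read-through HSPE1-MOB4 held 0.970% to 1.68% of the summed level, and the sums also did not overlap (439.8 ± 23.5 CPM in DMSO and 400.2 ± 16.5 CPM in BPAF, SD, n = 3).

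HSPD1 showed less separation than its partner. Its levels were 1746, 1755 and 1572 CPM in DMSO and 1612, 1637 and 1569 CPM in BPAF. DMSO replicate 3 lay at the bottom with BPAF replicate 3, and the log2 difference was -0.07 (SE 0.04; adjusted p = 0.288). The TPM ratio of HSPD1 to HSPE1 was 0.581, 0.617 and 0.546 in DMSO and 0.619, 0.606 and 0.638 in BPAF. The groups overlapped, with a log2 difference of 0.10 (exact permutation p = 0.2).

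**Figure D2:**
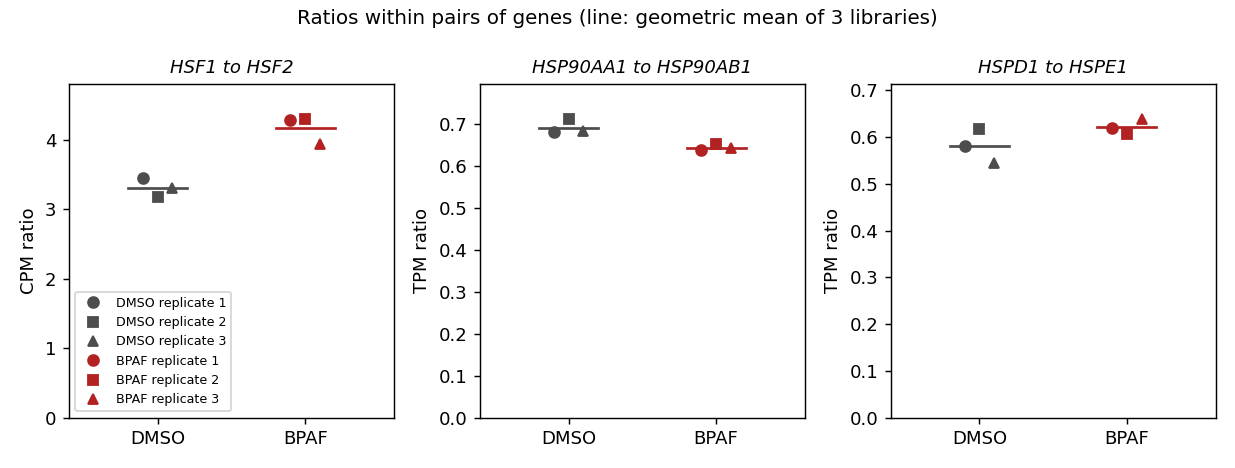
Ratio of HSF1 to HSF2 in CPM and of HSP90AA1 to HSP90AB1 and HSPD1 to HSPE1 in TPM (vertical axes, from 0), one point per library and a line at the geometric mean of each group. The first ratio is higher in every BPAF library in CPM, although taken from TPM its groups overlap. The second is lower in every BPAF library, and the third overlaps.

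Between genes, only TPM levels are comparable, because they are scaled for length. In DMSO the order was HSPA8 (3138 ± 124 TPM, SD, n = 3), HSPE1 (1936 ± 88.5), HSP90AB1 (1836 ± 152), HSP90AA1 (1271 ± 117), HSPD1 (1126 ± 92.7), DNAJA1 (462.0 ± 22.0), HSPH1 (180.0 ± 17.4), DNAJB1 (166.7 ± 18.3), HSF1 (106.7 ± 7.50) and HSF2 (26.9 ± 2.87). HSPE1 and HSP90AB1, HSP90AA1 and HSPD1, and HSPH1 and DNAJB1 were neighbours closer than their SDs combined. In BPAF the level of HSP90AB1 (1913 ± 62.6 TPM) was above that of HSPE1 (1827 ± 55.7 TPM), again within their combined SDs. Together the 10 genes made up 1.43%, 1.42% and 1.30% of all counts in DMSO and 1.32%, 1.35% and 1.27% in BPAF. The groups overlapped through DMSO replicate 3, and the difference of -0.07 percentage points had an exact permutation p of 0.3.

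Replicate 3 was the low library of both groups for these genes. DMSO replicate 3 was the lowest DMSO library for 9 of the 10 genes and BPAF replicate 3 the lowest BPAF library for all 10, against 34.1% of all tested genes in each case. Both were lowest for 9 of the 10 genes, against 12.3% of all tested genes. The largest deviation of log2 CPM from a group mean was that of HSPH1 in DMSO replicate 3, -0.16. HSPE1 was the exception, with its lowest DMSO level in replicate 2. Without DMSO replicate 3, 7 of the 10 genes were called lower (HSPA8, HSPH1, HSP90AA1, DNAJA1, DNAJB1, HSPD1 and HSF2), where 2.22% of all genes tested were, and the median log2 difference was -0.14. Leaving out the lowest DMSO library of 9 of the 10 genes raises their DMSO means, so this count is no separate support for a fall. The share of abundant genes called lower in this fit was not computed, and with all libraries it was 21.4%. Without BPAF replicate 1, HSPA8 alone was called. With all libraries, 4 of the 10 genes had CPM groups that did not overlap, against 24.8% of all tested genes.

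**Figure D3:**
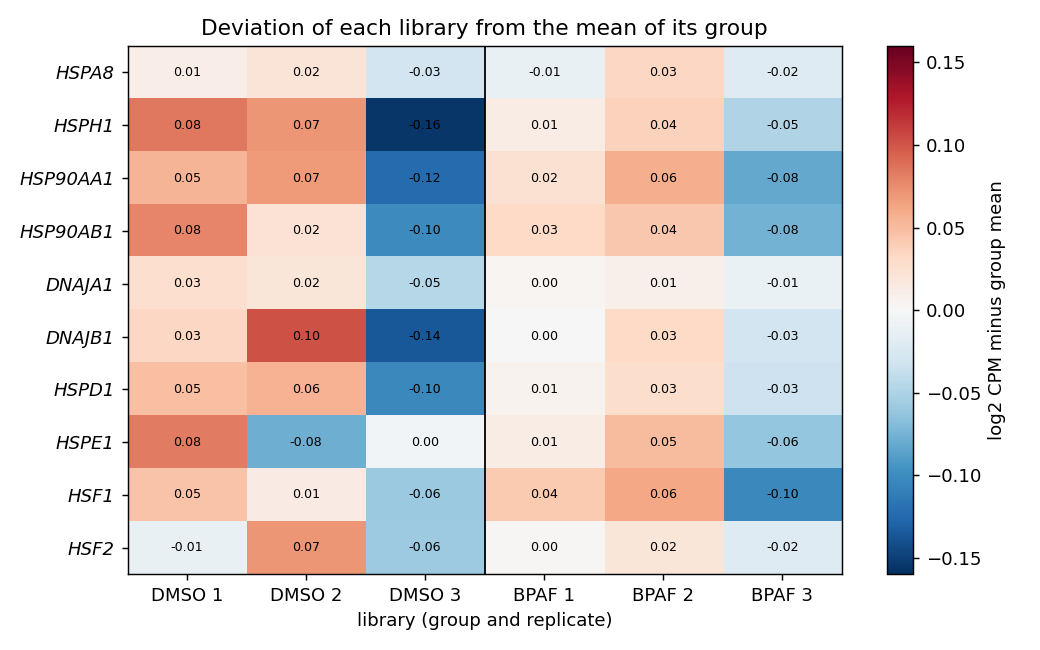
Log2 CPM of each gene (rows) in each library (columns) minus the mean of its group, with red above and blue below the mean. The column of DMSO replicate 3 runs down to -0.16 and is at or below the group mean for every gene, and BPAF replicate 3 is below it for all 10.

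The counts and the TPM table placed these genes differently against zero. On log2(TPM + 1), where the median of all genes tested was 0.08, 5 of the 10 genes had a difference below 0, the median of the 10 was -0.01, and none was called by limma (1 of the 10, HSF1, had an unadjusted p under 0.05). Only 1 of 15490 genes was called on that scale, and 2705 had an unadjusted p under 0.05. HSPH1, HSP90AB1, DNAJB1 and HSPD1 moved from below 0 on counts to 0.13, 0.06, 0.02 and 0.01 on log2(TPM + 1). HSF2 (-0.20), HSPE1 (-0.08), HSPA8 (-0.07), DNAJA1 (-0.04) and HSP90AA1 (-0.04) stayed below 0, and HSF1 stayed above it (0.15).

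**Figure D4:**
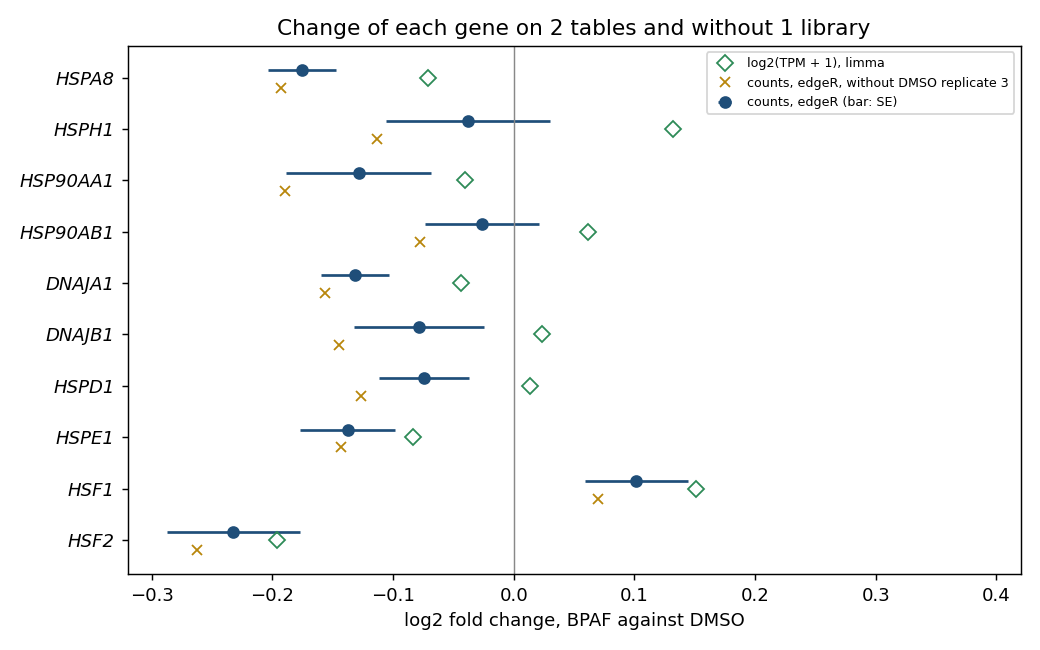
Log2 fold change of BPAF against DMSO for each gene from counts with its SE (filled circles, edgeR), from counts without DMSO replicate 3 (crosses) and from log2(TPM + 1) (diamonds). The crosses lie left of the circles for all 10 genes and the diamonds lie right of them for all 10.

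Other chaperone families were measured with lists of known members, to be read against the 3.4% of all tested genes and 21.4% of abundant genes called lower and the 2.65% of all called higher. Of 11 tested HSP70 and HSP110 family genes outside the 10, 3 fell and none rose, with a median log2 difference of -0.06, against -0.05 over the abundant genes and 0.0019 over all. HSPA13, a microsomal HSP70-like protein, fell by 0.22 (69.3 ± 2.67 to 59.4 ± 1.30 CPM, SD, n = 3; edgeR adjusted p = 0.00625), as did HSPA14, a ribosome-associated one, by 0.22 (60.1 ± 1.26 to 51.6 ± 1.31 CPM; adjusted p = 0.00725). HSPA5, the HSP70 of the endoplasmic reticulum known as BiP, fell by 0.17 (748.6 ± 44.7 to 665.4 ± 25.5 CPM; adjusted p = 0.0282), with adjusted p up to 0.107 when 1 library was left out. HSPA9, the mitochondrial HSP70, had 648.0 ± 17.0 CPM in DMSO and 624.4 ± 9.25 CPM in BPAF (adjusted p = 0.308).

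The classic heat-inducible HSP70 genes did not pass the test. HSPA1B had 52.0, 56.1 and 46.4 CPM in DMSO and 52.9, 52.6 and 45.7 CPM in BPAF, with replicate 3 again lowest in both groups and a log2 difference of -0.03 (adjusted p = 0.869). HSPA1A had under 1 CPM in every library (adjusted p = 0.763). The products of these genes are nearly identical, so how the deposited counting split their reads is uncertain.

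Among 38 other J-domain genes, 2 fell, none rose and the median was -0.04, so the count lay near the 3.4% of all tested genes called lower. DNAJC8, a J protein linked to splicing factors, fell by 0.22 (191.1 ± 12.4 to 163.5 ± 2.75 CPM, SD, n = 3; edgeR adjusted p = 0.00302), and DNAJC15, of the inner mitochondrial membrane, fell by 0.28 (21.6 ± 1.32 to 17.8 ± 0.339 CPM; adjusted p = 0.0271). The DNAJC15 call held in 1 of the 6 fits with a library left out (adjusted p up to 0.118) and not with DESeq2 (0.0816), and its difference in log2(TPM + 1) was -0.04. None of 10 exchange factors passed (median -0.02), the smallest p being that of GRPEL1, the mitochondrial one (-0.11; adjusted p = 0.0929), and DESeq2 gave it an adjusted p of 0.240, with 2 of the 10 at an unadjusted p under 0.05. Of 24 HSP90 co-chaperone genes, 1 rose and 1 fell (median -0.03). AHSA2P, a relative of the HSP90 ATPase activator AHSA1 annotated as a pseudogene, rose by 0.20 (142.1 ± 5.78 to 163.4 ± 5.98 CPM, SD, n = 3; adjusted p = 0.00293), and NUDCD1 fell by 0.16 (79.3 ± 2.05 to 70.9 ± 2.36 CPM; adjusted p = 0.0268). The NUDCD1 call held in 3 of the 6 fits with a library left out (adjusted p up to 0.144) and not with DESeq2 (0.0683).

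HSP90 of the other compartments did not pass the test either. HSP90B1 of the endoplasmic reticulum, known as GRP94, had 943.4 ± 18.1 CPM in DMSO and 899.4 ± 15.1 CPM in BPAF (SD, n = 3; -0.07, edgeR adjusted p = 0.159), without overlap, and mitochondrial TRAP1 had 203.2 ± 5.93 and 205.8 ± 12.1 CPM (0.02, adjusted p = 0.855). With DESeq2 their adjusted p values were 0.174 and 0.945, and 1 of them, HSP90B1, had an unadjusted edgeR p under 0.05 (0.0215). Of 10 small heat shock protein genes listed, 8 had at most 7 counts in any library and were not tested, HSPB11 was not matched by its symbol, and HSPB1 was tested, with 41.6 ± 2.28 CPM in DMSO and 41.6 ± 3.32 CPM in BPAF (adjusted p = 0.994). Of 4 tested genes related to the heat shock factors, HSBP1, whose product binds HSF1, fell by 0.16 (103.8 ± 5.08 to 92.9 ± 2.70 CPM; adjusted p = 0.0249), and its call held in 1 of the 6 fits with a library left out and not with DESeq2 (adjusted p = 0.0523).

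Genes known to be inducible by heat shock were also counted as a list of 27, which shares 7 genes with the 10 described here. The list was not restricted to genes induced through HSF1. Of its 26 tested genes, 5 fell and none rose, among them the immediate early genes FOS and JUN, and HSPA8 and DNAJA1. FOS had 2.84, 2.67 and 3.70 CPM in DMSO and 0.416, 1.13 and 0.436 CPM in BPAF, and fell by 2.23 on the log2 scale (SE 0.32; edgeR adjusted p = 0.000611). JUN had 12.9, 11.6 and 13.7 CPM in DMSO and 6.71, 8.14 and 5.58 CPM in BPAF, and fell by 0.91 (SE 0.13; adjusted p = 0.000487). Neither overlapped between groups, and both encode AP-1 transcription factor subunits that respond to many signals besides heat. The list's median log2 difference was -0.08, against -0.05 over the abundant genes and 0.0019 over all genes tested, of which 3.4% were called lower.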

How the data were processed

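The deposited count table held estimated counts with decimals per gene, and the deposited TPM table held TPM values with the same sum in each library. Tools listed in the submitters' processing notes are HISAT2, featureCounts, cutadapt and FastQC, with the builds GRCh38 and hg38. Versions, the annotation and the origin of fractional counts are not given in the sources used here. Features without an Ensembl identifier (192) took 0.243% to 0.271% of counts.

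Estimated counts were rounded, giving 20253656 to 22617613 per library, passed through filterByExpr, TMM-scaled and tested in edgeR 4.0.16 (R 4.3.3; robust quasi-likelihood fit, no covariate). P-values were adjusted over all 15490 genes by Benjamini-Hochberg at 0.05. The SE is the log2 fold change over the square root of F. Ratios and shares used two-sided exact permutation tests (scipy 1.17.1). Alternatives were DESeq2 1.42.0, limma 3.58.1 on voom values and on log2(TPM + 1) or log2(TPM + 0.1), other scalings and filters, protein-coding genes only, leaving out each library, and a block for the replicate number. The length and GC offset and the restriction to Ensembl identifiers were chosen after seeing the data. Pairs of libraries differed beyond sampling noise (chi-square over degrees of freedom 2.39 to 7.70).

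The genes and lists were chosen with earlier results of these data known. All 10 genes were named. From other lists, up to 4 passing genes by smallest p were named, or the 1 with the smallest p where none passed, and HSPA1A, HSPA1B, HSPA5, HSPA9, HSP90B1 and TRAP1 in any case. A gene named by this rule is not reported here. For HSPA8 and HSF2 the 3 genes most alike by Pearson correlation, among those averaging 5 or more in log2 CPM, were named. Coordinates came from GENCODE release 29 (GRCh38). Tested on simulated counts for this comparison (200 of 15490 genes changed), the fit found 63.5% of changes of 1.2-fold, 94% at 1.4-fold and 100% at 2-fold. Of its calls, 4.51%, 7.39% and 6.10% were false. Every simulated gene had the same dispersion (biological coefficient of variation 3.77%), and only genes above a count floor were changed. The falls called among the 10 genes were smaller than 1.2-fold, so these rates do not describe them.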

Additional observations from a re-analysis of the deposited data

How the results depend on the processing

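Fold changes of this size lie near what 3 libraries a group can resolve. The 938 genes called became 1 and 2 with limma on log2(TPM + 1) and log2(TPM + 0.1), 631 with DESeq2, 826 with the replicate block, 322 to 861 with 1 library left out (482 without DMSO replicate 1, 322 without BPAF replicate 1 and 392 without BPAF replicate 3). Under upper quartile scaling 53.5% of calls were higher, against 43.8% with TMM. The 3 of 10 chaperone and HSF genes called became 0 and 0 on the 2 TPM scales, 5 with no filter on low counts, 4 with the replicate block and 1 to 7 with 1 library left out. HSP90AA1 passed under the replicate block (adjusted p = 0.0270), but over tested genes with an average log2 CPM above 3 same-numbered libraries did not deviate together (correlations 0.036, -0.021 and 0.043), so the numbers were not taken as pairs, although replicate 3 was lowest in both groups for 9 of the 10 genes. Differences turned above 0 for HSPH1 on log2(TPM + 1) (0.13) and log2(TPM + 0.1) (0.13), for HSP90AB1 (0.0619 and 0.0619), DNAJB1 (0.0234 and 0.0236) and HSPD1 (0.0132 and 0.0132). On these 2 scales the median of all genes tested was itself 0.0775 and 0.0892. HSP90AB1, DNAJB1 and HSPD1 lay below that median and HSPH1 above it. With 1 library left out HSPH1 ranged from -0.11 to 0.0039 and HSP90AB1 from -0.0777 to 0.0125; none of these positive values passed the test. DNAJA1 (adjusted p = 0.0745) and HSF2 (0.0621) missed the threshold with the length and GC offset, and HSPE1 passed it (0.0194). Over all alternatives, 143 of the single-gene values kept direction and side of the threshold, 13 gained a call, 13 lost one and 11 reversed; the cause was not tested.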

Other observations

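Of 10 reference genes often used to scale expression, 3 fell and none rose, with a median log2 difference of -0.06, near the 21.4% called lower and the median of -0.05 among abundant genes. TFRC, the transferrin receptor gene, fell by 0.15 (425.3 ± 21.8 to 382.3 ± 6.75 CPM, SD, n = 3; edgeR adjusted p = 0.00948), the glycolysis gene PGK1 by 0.11 (957.9 ± 16.2 to 889.4 ± 15.2 CPM; adjusted p = 0.0238) and PPIA, which encodes cyclophilin A, by 0.10 (1663 ± 4.93 to 1556 ± 26.3 CPM; adjusted p = 0.0365). With 1 library left out their adjusted p reached 0.0711, 0.147 and 0.185. On log2(TPM + 1), TFRC and PGK1 had differences of 0.02 and 0.02 and PPIA one of -0.01.

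The deposited count divided by the deposited TPM gives a relative length for each gene in each library, taken here as log2 against the other libraries. For HSF2 it was 0.25 in BPAF replicate 1, 0.08 in DMSO replicate 1 and -0.10 to -0.07 in the other 4 libraries. That range of 0.35 was at the 80.3 percentile of 12779 genes. For HSP90AB1 the range was 0.0038, and for HSPA8 0.03.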
